A study of Oryctolagus cuniculus with 16 samples.

Results

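The chemokine ligands CCL2, CCL4 and CXCL8 and the chemokine receptor CCR1 were followed in vein tissue of male rabbits after vein graft surgery. Every array probe whose transcript accession belongs to one of these 4 genes was taken, without regard to its values. This gave 17 probes of the 43603 on the array, 16 for the ligands (4 for CCL2, 5 for CCL4 and 7 for CXCL8) and 1 for CCR1. The array names 2127 genes in all, of which these are 4. The groups were grafts taken at 1 day (day 1, 6 arrays), grafts taken at 7 days (day 7, 6 arrays) and veins of sham-operated rabbits (sham, 4 arrays). Strain, age and the day on which sham tissue was taken are not given in the sources used here. Total RNA was labelled with Cy3 and hybridized to Agilent one-colour arrays, so each value is the brightness of 1 probe and levels are compared between groups for the same probe only.

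Chemokines are small secreted proteins that direct the migration of leukocytes along a concentration gradient, and they act through receptors that span the membrane and couple to G proteins. CCL2 attracts monocytes mainly through CCR2, CCL4 attracts monocytes and T cells, and CXCL8 (interleukin 8) attracts neutrophils through CXCR1 and CXCR2. CCR1 is a receptor of monocytes and other leukocytes that binds CC chemokines such as CCL3 and CCL5. In a vein moved into the arterial circulation, leukocyte entry is an early part of the response to surgery.

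Arrays of a graft group fell into 2 sets of 3, and arrays of the same set differed by less than the noise between spots of one array, with a variance ratio of 0.171 to 0.427. The 3 arrays of a set lay at the same position in 3 scans and shared their deviations between spots (r of 0.84 to 0.98), so they may be repeat scans. Each set was averaged and counted as 1 sample. Arrays of different sets were also close, with a ratio of 1.65 to 2.27. This left 2 samples for day 1, 2 for day 7 and 4 for sham. Nothing says that they came from separate animals, so the p-values measure the spread between these samples, which may be technical. Every sham array was scanned in a scan of its own group, so that scan and surgery cannot be told apart in the comparisons with sham. The 3 other scans each held day 1 arrays at positions 1 and 2 and day 7 arrays at positions 3 and 4, so that array position and day cannot be told apart either. Among the sham arrays, replicates 1 and 2 differed from replicates 3 and 4 by at least 1 on the log2 scale at 10.6% of probes. The variance ratio was 1.09 to 2.52 within these 2 pairs and 19.2 to 19.9 between them. The 4 sham samples may therefore stand for only 2 separate units. Graft samples of one day were about as alike as arrays within a sham pair. The unscaled arrays had a 75th percentile of 863 to 1023 intensity units at day 1, of 2488 to 2831 at day 7 and of 1329 to 2026 for sham. Values below are quantile-normalized log2 signals unless another scale is named.

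The ligands and the receptor were all up-regulated in the grafts, and they differed in when they were highest. After quantile normalization each of the 16 ligand probes was highest on day 1, an order that turned for CCL2 and CCL4 without normalization, while CCR1 was intermediate on day 1 and highest on day 7. A probe was called changed when its limma adjusted p (Benjamini-Hochberg over all 35763 probes fitted) was below 0.05 and its absolute log2 fold change was at least 1. All 17 probes were called higher on day 1 than in sham, where 25.2% of all probes were. All 17 were also called higher on day 7 than in sham, against 17.5% of all probes. At each of the 17 probes every graft sample lay above every sham sample, as at 43.5% of all probes on day 1 and 37.9% on day 7. In bulk tissue, more cells of a type and more RNA per cell cannot be told apart. The probes of one gene measure the same transcript, so these counts stand for 4 genes. The median log2 fold change of the 17 probes was 7.80 on day 1 and 4.80 on day 7, where the median of all probes was 0.12 and 0.04.

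**Figure D1:**
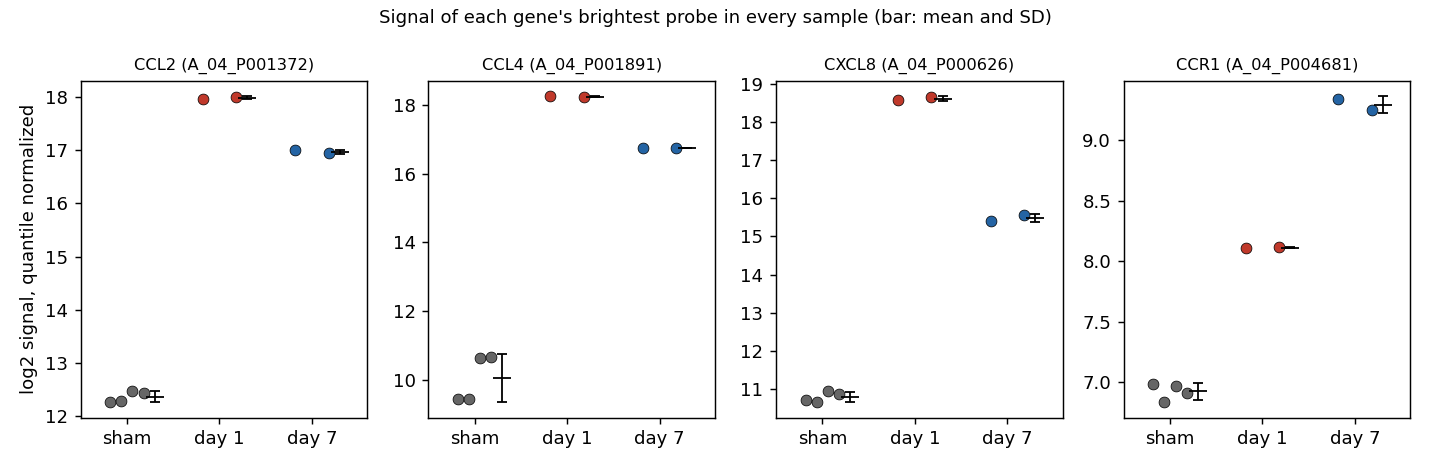
Quantile-normalized log2 signal (y axis, a separate range in each panel) of the brightest probe of CCL2, CCL4, CXCL8 and CCR1 in each sample of the sham, day 1 and day 7 groups, with the mean and SD beside the points. The ligands sit highest on day 1 (for CCL2 and CCL4 not so without normalization) and CCR1 on day 7, and the 4 sham samples of CCL4 fall into 2 levels near 9.4 and 10.6.

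CCL2, the monocyte attractant, rose early and stayed high. Its brightest probe (A_04_P001372) had a log2 signal of 12.27, 12.28, 12.47 and 12.44 in the 4 sham samples. It was 17.97 and 18.01 on day 1. It was 17.00 and 16.94 on day 7. The 3 groups did not overlap, and the range within each group was small beside the distance from sham. Against sham, the log2 fold change was 5.63 (SE 0.10) on day 1, a 49.4-fold rise, with an adjusted p of 8.87e-08 from limma. On day 7 it was 4.61 (SE 0.10), a 24.4-fold rise, with an adjusted p of 2.59e-07 from limma. The other 3 CCL2 probes rose by 5.80 to 6.27 on day 1 and by 4.74 to 5.30 on day 7. The rise at A_04_P001371 exceeded that of the brightest probe by 0.65 on day 1 and by 0.13 on day 7 (adjusted p of 0.000310 and 0.224 from limma). At A_04_P001374 the excess was 0.45 on day 1 and 0.69 on day 7 (adjusted p of 0.00996 and 0.00110 from limma). At A_04_P001373 it was 0.18 and 0.19 (adjusted p of 0.155 and 0.124 from limma).

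CCL4, also called macrophage inflammatory protein 1 beta, had the largest day 7 rise of the 4 genes when each was read by its brightest probe. Its brightest probe (A_04_P001891) had a log2 signal of 9.42, 9.43, 10.61 and 10.66 in the sham samples. It was 18.26 in both day 1 samples. It was 16.76 in both day 7 samples. The sham samples stood at 2 levels, 1.21 apart, yet every sham sample was more than 6 log2 units below every graft sample. The log2 fold change was 8.23 (SE 0.41) on day 1 and 6.73 (SE 0.41) on day 7, with adjusted p-values of 2.43e-06 and 1.22e-05 from limma. All 5 CCL4 probes rose by 8.23 to 8.55 on day 1 and by 6.56 to 7.00 on day 7, and the difference from the brightest probe did not pass the threshold at any of the other 4 (adjusted p of 0.358 or above from limma on day 1).

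The step between the sham samples was present in each of the 5 CCL4 probes, at 1.11 to 1.25, and was smaller in CCL2 (0.06 to 0.32), CXCL8 (0.05 to 0.32) and CCR1 (0.03). With sham replicates 1 and 2 alone, the CCL4 rise was 8.83 on day 1 and 7.33 on day 7. With replicates 3 and 4 alone it was 7.62 and 6.12. Some leukocyte markers were also higher in sham replicates 3 and 4 and others were not: of the 6 neutrophil markers with a named probe 4 were higher and 2 lower (-0.20 to 1.48), and of the 4 T cell markers 3 were higher and 1 lower (-0.36 to 0.61). Both monocyte and macrophage markers were higher (0.68 and 1.08), and all 3 smooth muscle markers were lower (-2.37 to -0.57). S100A8, a neutrophil calcium-binding protein, had 12.49, 12.64, 14.12 and 13.98 in sham replicates 1 to 4, and CD14, the monocyte endotoxin co-receptor, had 10.53, 10.46, 11.52 and 11.63. The part of these cell types in the CCL4 levels of the sham samples was not tested.

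CXCL8, the neutrophil attractant, had the largest difference between day 1 and day 7 of the 4 genes after quantile normalization. Without normalization CCR1 differed more, by 2.47 against -1.54 at the brightest CXCL8 probe. The brightest CXCL8 probe (A_04_P000626) had a log2 signal of 10.72, 10.66, 10.96 and 10.87 in the sham samples. It was 18.57 and 18.65 on day 1. It was 15.40 and 15.56 on day 7. Sham, day 7 and day 1 formed 3 separate levels in that order, each several log2 units from the next. The log2 fold change against sham was 7.80 (SE 0.12) on day 1, a 224-fold rise, and 4.68 (SE 0.12) on day 7, a 25.7-fold rise, with adjusted p-values of 7.82e-08 and 3.71e-07 from limma.

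The 7 CXCL8 probes did not give a single value. Probes A_04_P004966 and A_04_P004967 rose by 9.09 each on day 1 and by 6.89 and 6.46 on day 7. Their rise exceeded that of the brightest probe by 1.29 each on day 1 (adjusted p of 6.47e-06 and 6.42e-06 from limma on the difference between probes). On day 7 the excess was 2.20 and 1.77 (adjusted p of 2.24e-07 and 8.77e-07 from limma). These 2 probes had the lowest sham signals of the 7, 8.01 to 8.32 and 7.88 to 8.21, and were well above background on all 16 arrays, as were all 17 probes. The other 4 probes rose by 7.41 to 8.14 on day 1 and by 4.37 to 4.76 on day 7. The order of the groups was the same in all 7 probes.

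**Figure D2:**
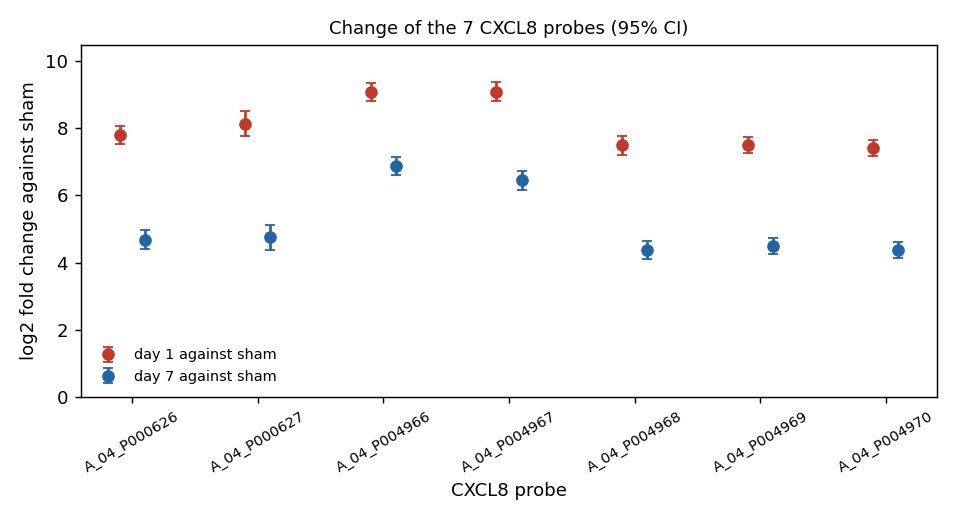
Log2 fold change against sham (y axis) of each of the 7 CXCL8 probes (x axis) on day 1 and on day 7, with 95% confidence intervals from limma. All probes were higher on day 1 than on day 7, and A_04_P004966 and A_04_P004967 lie above the other 5 on both days.

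CCR1, the receptor, rose less than the 3 ligands and was highest on day 7. Its only probe (A_04_P004681) had a log2 signal of 6.99, 6.84, 6.97 and 6.91 in the sham samples. It was 8.11 and 8.12 on day 1. It was 9.34 and 9.25 on day 7. The groups formed 3 levels, sham, day 1 and day 7, with no overlap. The log2 fold change against sham was 1.19 (SE 0.09) on day 1, a 2.28-fold rise, and 2.37 (SE 0.09) on day 7, a 5.16-fold rise, with adjusted p-values of 1.81e-05 and 1.64e-06 from limma. The day 1 value was just over the fold threshold, and it was 0.82 with normexp background correction and 0.63 without normalization, both under it. With 1 probe, no second measurement of CCR1 was at hand, and 22.5% of all probes had a larger rise on day 1 and 5.37% on day 7.

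On the log2 scale CCR1 had reached 50.2% of its day 7 rise by day 1, but 20.2% without normalization and 58.9% after scaling to the 75th percentile. After quantile normalization the ligands stood above their day 7 rise on day 1, at 115% to 132% of it for CCL2, 122% to 127% for CCL4 and 132% to 171% for CXCL8.

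**Figure D3:**
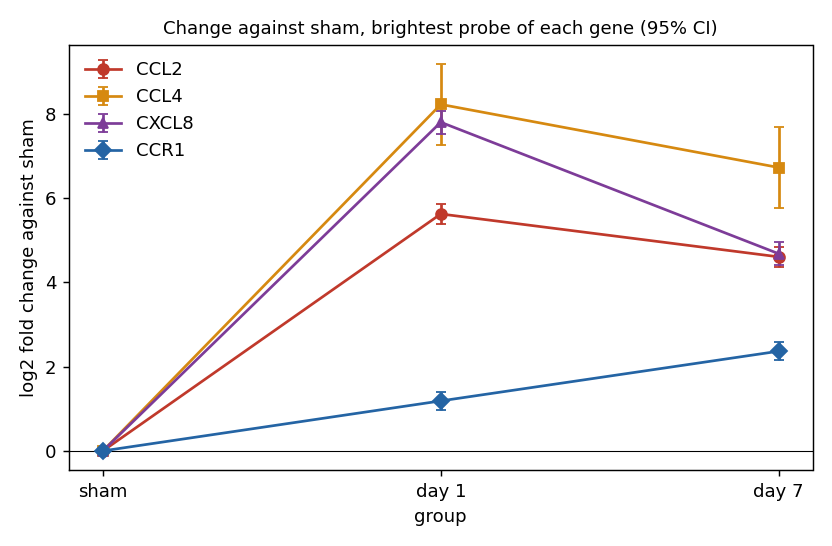
Log2 fold change against sham (y axis) on day 1 and day 7 for the brightest probe of each gene, with 95% confidence intervals from limma and sham set to 0. CCL2, CCL4 and CXCL8 were at 5.63, 8.23 and 7.80 on day 1 and lower on day 7 on this scale (for CCL2 and CCL4 not so without normalization), while CCR1 went from 1.19 to 2.37.

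The direct comparison of day 7 with day 1 showed a fall in the ligands and a rise in the receptor after quantile normalization, while without normalization CCL2 and CCL4 had the opposite direction. Of the 16 ligand probes, 15 were called lower on day 7, where 18.9% of all probes were, and CCR1 was called higher, as were 21.1% of all probes. CXCL8 changed by -3.38 to -2.21 over its 7 probes, and by -3.12 (SE 0.14) at the brightest, which was 8.71-fold lower (adjusted p of 4.70e-06 from limma). CCL4 changed by -1.77 to -1.50 over its 5 probes, and by -1.50 (SE 0.47) at the brightest probe (adjusted p of 0.0267 from limma). CCL2 fell at 3 probes, with a difference of -1.54 at A_04_P001371, while A_04_P001373 and A_04_P001372 were just past the fold threshold at -1.002 and -1.02, and A_04_P001374 was under it at -0.78 (adjusted p of 0.00886 from limma). CCR1 rose by 1.18 (SE 0.10), 2.27-fold, with an adjusted p of 7.28e-05 from limma.

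No day 7 sample overlapped a day 1 sample at any of the 17 probes, a pattern shown towards lower values by 46.2% of all probes and towards higher values by 43.9%. The 3 scans that held both days may be repeat scans of the same arrays, so values within them are no separate measurement. At the brightest probes they lay between -1.06 and -0.97 for CCL2, between -1.51 and -1.48 for CCL4, between -3.15 and -3.10 for CXCL8 and between 1.15 and 1.20 for CCR1.

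How far CCL2 and CCL4 fell between the 2 days depended on the scaling of the arrays. After scaling to the 75th percentile, the CCL2 probes differed by -0.82 to 0.03, with none called and A_04_P001374 turned to above 0, and the CCL4 probes by -1.24 to -1.07, with 1 of 5 called. Without normalization, CCL2 was higher on day 7 by 0.67 to 1.52 and CCL4 by 0.26 to 0.43, so that the direction of both turned, but the median of all probes was then 1.09 above day 1. Relative to the median of all probes, the difference without normalization was -0.41 to 0.43 for CCL2, -0.83 to -0.66 for CCL4, -2.86 to -1.32 for CXCL8 and 1.39 for CCR1. Under every scaling tried, the 7 CXCL8 probes were below 0 and CCR1 above 0, but not every call held. CCR1 was under the fold threshold at 0.98 after scaling to the 75th percentile and at 0.86 with normexp, and without normalization CXCL8 A_04_P004966 was at -0.23 (adjusted p of 0.476 from limma). The 4 reference genes with a named probe also moved with the scaling. Actin beta (ACTB) differed by -0.12 after quantile normalization, -1.38 after scaling to the 75th percentile and 0.12 without normalization. GAPDH differed by 0.03, 0.25 and 1.75 in the same order. HPRT1 differed by -0.26, 0.19 and 1.69, and PPIA by 0.52, 1.17 and 2.66.

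**Figure D4:**
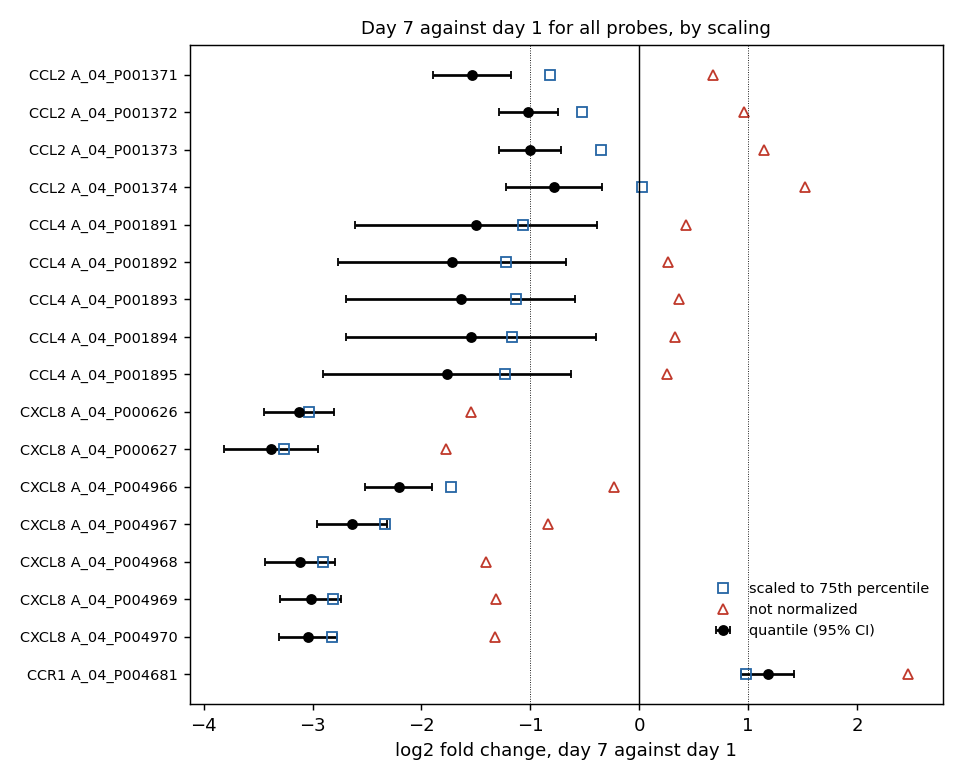
Log2 fold change of day 7 against day 1 (x axis) for each of the 17 probes (y axis) after quantile normalization, with 95% confidence intervals from limma (circles), after scaling to the 75th percentile (squares) and without normalization (triangles). Dotted lines mark -1 and 1; CXCL8 stays below 0 and CCR1 above 0 throughout, while CCL2 and CCL4 cross 0 without normalization.

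The call of CCL4 between the 2 days depended on which samples entered the fit, while its size did not. The CCL4 interval at the brightest probe ran from -2.61 to -0.39, and the fit shares 1 spread over all groups, sham (SD 0.699) included, although the SD was 0.00579 on day 1 and 0.00493 on day 7. With day 1 and day 7 alone in the fit, all 5 probes were called. Leaving out 1 of the 4 graft samples ended the call of all 5 CCL4 probes in 3 of 4 cases, and of 4 of 5 probes when day 7 sample 1 was left out, with adjusted p-values of 0.0512 to 0.101 from limma, while the differences of the 5 probes stayed between -1.89 and -1.49. Leaving out day 7 sample 2 also took 2 CCL2 probes under the fold threshold, at -0.99 and -0.86, so that 9 of the 17 probes remained called.

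Ligands and receptor were compared with each other through the log2 ratio of each ligand to CCR1 in the same sample, in which a shift common to all probes of an array cancels. At the brightest probe of each ligand, this ratio changed from day 1 to day 7 by -2.20 (SE 0.13) for CCL2, by -2.68 (SE 0.45) for CCL4 and by -4.30 (SE 0.15) for CXCL8. The adjusted p-values, from limma over the ratios of all probes to CCR1, were 7.34e-06, 0.00100 and 1.72e-06. Of all such ratios, 79.6% passed the same threshold in either direction, and every ratio shares the CCR1 values. Only 19.2% of all probes had a higher log2 fold change than CCR1 between the days. A fall of the ratio to CCR1 was therefore shown by most probes and is not particular to the ligands. Over all probes the ratio changed by -2.72 to -1.96 for CCL2, by -2.95 to -2.68 for CCL4 and by -4.56 to -3.39 for CXCL8. The change was below 0 at all 16 ligand probes under every scaling tried. Scaling to the 75th percentile and no normalization give the same ratio by construction, so they are not separate checks of it. Its size was smallest under these, at -0.95 for CCL2 A_04_P001374, -2.04 for CCL4 and -2.71 for CXCL8 A_04_P004966.

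Among the other chemokine genes, the array names were sparse: 1 of 38 further ligands and 3 of 21 further receptors had a named probe. CCL21, which guides T cells and dendritic cells through CCR7, had a log2 signal of 12.96, 13.12, 12.58 and 12.70 in sham. It was 6.70 and 6.95 on day 1 and 10.58 and 10.81 on day 7. After quantile normalization CCL21 ran opposite to the 3 member ligands. It fell by 6.02 (SE 0.18) on day 1 and by 2.14 on day 7, and it rose by 3.87 between the days (adjusted p of 3.43e-07, 5.61e-05 and 9.77e-06 from limma). Without normalization CCL21 rose by 4.965 between the days, and CCL2 and CCL4 rose too, so that only CXCL8 ran opposite there. Lower calls were made at 24.6% of all probes on day 1 and at 15.4% on day 7.

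The receptors of CXCL8 were higher on day 1. CXCR1 had 9.47, 9.71, 9.28 and 9.52 in sham, 13.27 in both day 1 samples, and 9.98 and 10.22 on day 7. It rose by 3.78 on day 1 and fell by 3.17 from day 1 to day 7, and on day 7 it was 0.61 from sham, under the fold threshold (adjusted p of 7.35e-07, 8.12e-06 and 0.00755 from limma). CXCR2 rose by 1.72 on day 1 and fell by 1.92 from day 1 to day 7 (adjusted p of 1.53e-05 and 3.74e-05 from limma), and its day 7 difference from sham was -0.20. Without normalization CXCR2 was not called on day 1 (0.98) or between the days (-0.67), and CXCR1 was called higher on day 7 than in sham (1.25). Both receptors were lower on day 7 than on day 1, as CXCL8 was, and CCR1 was higher.

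CX3CR1, the fractalkine receptor of monocytes and lymphocytes, rose by 1.92 on day 1 and 1.95 on day 7 (adjusted p of 2.58e-06 and 5.05e-06 from limma), and it was under the fold threshold with normexp. Its 2 days differed by 0.03, with a sign that turned to -0.73 after scaling to the 75th percentile.

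**Figure D5:**
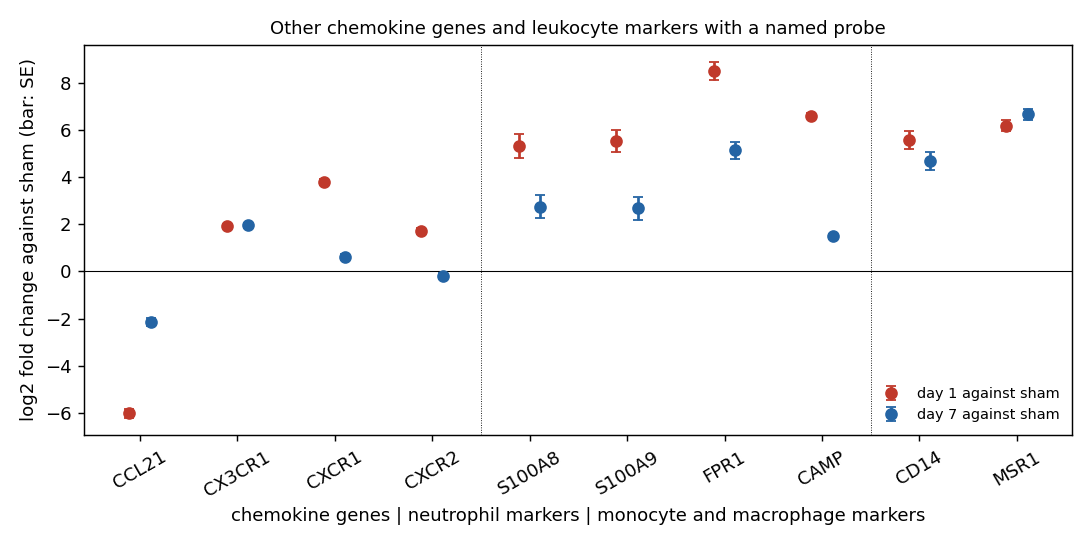
Log2 fold change against sham (y axis, bars are SE) on day 1 and day 7 of the 4 other chemokine genes with a named probe, of 4 neutrophil markers and of 2 monocyte and macrophage markers. CCL21 lies below 0 on both days, CXCR1, CXCR2 and the neutrophil markers are higher on day 1 than on day 7, and CX3CR1 lies near 1.9 on both days.

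Markers of the leukocytes that carry these receptors moved as well. Of 12 neutrophil markers listed, 6 had a named probe (S100A8, S100A9, FPR1, CAMP, CXCR1 and CXCR2), and all 6 were well above background on every array. All 6 were called higher on day 1 than in sham, where 25.2% of all probes were. All 6 were also called lower on day 7 than on day 1, against 18.9% of all probes. Without normalization S100A8, S100A9 and CXCR2 were not called between the days, and CXCR2 was not called on day 1. Their mean log2 signal was 9.01 to 9.69 in the sham samples, 14.60 to 14.63 on day 1 and 11.38 to 11.52 on day 7. FPR1, a receptor for bacterial formyl peptides, rose by 8.49 on day 1 and CAMP, an antimicrobial granule peptide, fell by 5.12 from day 1 to day 7. The mean of the 6 markers had the order of the 3 ligands after quantile normalization, although CXCR2 was below sham on day 7 (-0.20). Without normalization the order of CCL2 and CCL4 turned. The part of neutrophils in the ligand values was not tested.

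The monocyte and macrophage list had 2 of 11 markers with a named probe. CD14 rose by 5.56 on day 1 and 4.67 on day 7, and MSR1, a macrophage scavenger receptor, rose by 6.17 and 6.65. Their mean log2 signal was 9.61 to 10.57 in sham, 15.92 to 15.97 on day 1 and 15.67 to 15.80 on day 7. Neither was called between the days after quantile normalization, at -0.89 for CD14 and 0.48 for MSR1. MSR1 was called higher on day 7 than on day 1 after scaling to the 75th percentile (1.15) and without normalization (2.65). CD14 turned to 1.45 without normalization and was called higher. The part of these markers in the CCL2, CCL4 and CCR1 values was not tested. The T cell markers were mixed after quantile normalization: CD4 and CD5 were called higher than sham on day 1, CD3E and CD5 on day 7, and CD28 on neither day. Neither day 7 call held with normexp.

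Markers of the vein wall differed in their course. The endothelial gene NOS3 was called lower than sham on both days, at -1.31 and -2.95, although with normexp not on day 1 (-0.825). KDR, the other endothelial marker with a named probe, was also called lower on both days, but it was not well above background on any graft array. Of 7 smooth muscle markers, 3 had a named probe (ACTA2, MYH11 and DES), all well above background on every array. ACTA2 and MYH11 fell by 5.14 and 5.33 on day 1, and DES was not called (-1.85). On day 7 MYH11 and DES fell by 6.49 and 3.79, while ACTA2 was not called (-0.49, and 0.67 without normalization). The fibroblast genes COL1A2, LUM and DCN fell on day 1, with differences of -2.72, -3.50 and -2.87. On day 7 DCN differed from sham by -1.89, while COL1A2 (-0.0021) and LUM (-0.16) were not called. Without normalization DCN was not called on day 7 (-0.32) and LUM was called higher (1.07). On day 1 the skeletal muscle myosin gene MYH1 rose by 5.15 and the platelet integrin gene ITGA2B by 4.29. Neither was called on day 7, at 0.47 and -0.60 from sham. Both fell between the 2 days, by 4.68 and 4.89, in the direction of the ligands after quantile normalization. Of the same lists, CKM (skeletal muscle) rose by 1.03 on day 1, and with normexp by 0.25 and was not called. It was called lower than sham on day 7 (-3.05), where it was not well above background on any array. The haemoglobin genes HBA and HBB2 were not called in any comparison after quantile normalization. The part of these genes in the ligand values was not tested.

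Of 60 genes listed for signalling below chemokine receptors, 10 had a named probe and 9 were fitted. On day 1, NCF1 (a subunit of the phagocyte NADPH oxidase), PRKCB (a protein kinase C) and ELMO1 (a partner of DOCK proteins in cell migration) rose by 5.73, 4.84 and 1.05. GNAI1, an inhibitory G protein subunit, and ROCK1, a kinase of the cytoskeleton, fell by 4.03 and 3.06, and 4 genes were not called. On day 7, PRKCB, NCF1 and the SRC family kinase FGR rose by 2.37, 1.91 and 1.80, GNAI1 and ROCK1 fell by 3.52 and 1.02, and 4 genes were not called. Between the days ROCK1, RHOA and FGR rose by 2.04, 1.64 and 1.16, and NCF1 and PRKCB fell by 3.82 and 2.47. Of all probes, 49.8% were called in either direction on day 1, 32.9% on day 7 and 39.9% between the days. The median of the 9 genes was 0.64 on day 1, 0.68 on day 7 and 0.09 between the days, against 0.12, 0.04 and -0.03 over all probes. ELMO1 on day 1 was not called without normalization (0.30) or with normexp (0.88), and ROCK1 on day 7 was not called after scaling to the 75th percentile (-0.96), without normalization (-0.24) or with normexp (-0.80). FGR was not called between the days after scaling to the 75th percentile (0.43) or with normexp (0.58), nor on day 7 with normexp (0.82). PRKCB was not called between the days without normalization (-0.81), and its 6 probes spread from 1.81 to 4.84 on day 1 and from -2.47 to -0.59 between the days.

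The genes with the most similar pattern were named over the 8 samples among 1971 other named genes, each by its brightest probe. For CCL2 they were TNF (Pearson r of 0.9994), the bradykinin receptor gene BDKRB1 (0.9993) and WDR12 (0.9982). For CCL4 they were AOAH, an enzyme that inactivates endotoxin (0.9996), the prostaglandin receptor gene PTGER4 (0.9988) and PPP2R5C (0.9985). For CXCL8 they were the endotoxin receptor gene TLR4 (0.9989), LITAF (0.9985) and TACC3 (0.9985). For CCR1 they were MCL1, a survival factor of the BCL2 family (0.9993), XDH (0.9993) and LOC100101600 (0.9983). These coefficients describe 8 samples in 3 groups and rest mainly on the 3 group means. Among the members, CCL2 and CCL4 had r of 0.996, CCL2 and CXCL8 0.980 and CCL4 and CXCL8 0.976, while CCR1 had 0.836, 0.831 and 0.711 with CCL2, CCL4 and CXCL8.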

How the data were processed

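The authors deposited, for each of 16 arrays, the intensity of every spot as written by Agilent Feature Extraction (11.0.1.1 per the file headers, 9.1 per the submitters' notes), and log2 values quantile-normalized in GeneSpring for 33670 probes. The deposited intensities were used here and the log2 values served as an alternative. Spots called outlying were left out (1.46% of spots on at least 1 array), log2 signals were quantile-normalized and spots of a probe averaged. Of 43603 probes, 35763 were kept, those called well above background throughout 1 group or more. The number of arrays limits the precision.

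Gene symbols came from RefSeq's rabbit annotation (mOryCun1.1, names only) by accession for 3368 probes, and by the gene identifiers that the study's supplement pairs with probes for 2816 more.

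Arrays of a group that differed by no more than spot noise, measured on 50 probes with several spots, were averaged. One model of 3 groups was fitted per probe with lmFit and eBayes of limma 3.58.1 (R 4.3.3), with two-sided p-values adjusted over all probes, and tested on simulated data. Listed genes were represented by their brightest probe. Named were all member probes, every other chemokine gene called in a comparison, the 3 highest and 3 lowest called signalling genes, and the 3 genes most correlated with each member. Marker genes, the 2 probes of CXCL8 that stood apart and the reference genes were singled out after their values were seen. One gene of the lists is not reported here. Members and lists were chosen with earlier results of these data known.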

Additional observations from a re-analysis of the deposited data

Results flagged for a closer look

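Between day 7 and day 1, 17 member probes and 3 other chemokine genes changed by a test of the difference between the 2 days (limma, adjusted p under 0.05). Their change against sham thus differed between the 2 time points after quantile normalization. This rule has no fold threshold, and the share of all probes that passed it is not given here. With the fold threshold, 39.9% of all probes were called between the days. Without normalization CCL2 and CCL4 had the opposite direction. For CCL2 the difference was -1.54 at A_04_P001371, -1.02 at A_04_P001372, -1.002 at A_04_P001373 and -0.78 at A_04_P001374. For CCL4 it was -1.50, -1.71, -1.64, -1.55 and -1.77 at probes A_04_P001891 to A_04_P001895. For CXCL8 it was -3.12 at A_04_P000626 and -3.38 at A_04_P000627. It was -2.21, -2.64, -3.12, -3.02 and -3.04 at CXCL8 probes A_04_P004966 to A_04_P004970. For CCR1 it was 1.18. CCL21 was higher on day 7 by 3.87. CXCR1 and CXCR2 were lower on day 7, with differences of -3.17 and -1.92.

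At none of the 21 probes tested (17 of the members and 4 of other chemokine genes) did 1 sham sample lie outside the other 3 by Dixon's test. The 2 levels of CCL4 in the sham group held 2 samples each, which that test cannot set apart.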

How the results depend on the processing

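The comparisons with sham kept their direction at all 17 member probes, and 16 or 17 were called in each refit over probes. CCR1 on day 1 was the exception, at 0.82 with normexp, at 0.63 without normalization, and at 1.19 (adjusted p of 0.0522 from limma) with arrays at neighbouring positions averaged. With 1 value per gene, by the brightest probe or the mean of its probes, 4 of 4 genes were called in each comparison. Between the 2 days 16 probes were called, against 8 after scaling to the 75th percentile (0 higher, 8 lower), 8 without normalization (3 higher, 5 lower), 0 with neighbouring positions averaged (11 at an unadjusted p under 0.05 by limma, and 0 of all 35763 probes called, so that this setting says nothing about the members), and 9 to 16 with 1 sample left out, where a lone sample was assumed to vary like the other groups. CCL2 A_04_P001374 reversed to 0.026 after scaling to the 75th percentile. Without normalization CCL2 reversed to 0.67, 0.97, 1.15 and 1.52 at A_04_P001371 to A_04_P001374, and CCL4 to 0.43, 0.27, 0.37, 0.33 and 0.26 at A_04_P001891 to A_04_P001895, while the median of all probes moved from -0.03 to 1.09. Of all probes, 39.9% were called between the days, 48.9% after scaling to the 75th percentile and 58.2% without normalization. The share of higher calls among all calls between the days was 52.8%, 32.1% after scaling to the 75th percentile and 88.4% without normalization. For day 1 against sham it was 50.6%, 64.1% and 34.7%, and for day 7 against sham 53.2%, 48.4% and 79.0%. The CCL4 ratio to CCR1 was -2.68 with an adjusted p of 0.0600 with neighbouring positions averaged. With 1 sample left out the ratios lay between -2.22 and -2.18 for CCL2, -2.73 and -2.63 for CCL4 and -4.43 and -4.17 for CXCL8. Of the 4 other chemokine genes, 2 were called on day 7 against sham and 1 with normexp. The replicate numbers do not pair the samples, since the deviations of same-numbered arrays correlated at -0.014 to 0.047. With the replicate number as a block, 17, 17 and 16 member probes were called and the ratios to CCR1 were -2.20, -2.68 and -4.30. No normalization, neighbouring positions averaged and single pairs of sham arrays were alternatives chosen after seeing the data. The cause of these changes was not tested.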
